A study of Mus musculus with 15 samples.

Results

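The dystrophin-glycoprotein complex was described through 9 genes, taken by symbol from the deposited table: Dmd (dystrophin), Utrn (utrophin), Dag1 (dystroglycan), Sgca, Sgcb and Sgcd (α-, β- and δ-sarcoglycan), Sspn (sarcospan), Lama2 (laminin α2) and Dysf (dysferlin). All 9 were found among 22798 symbols, and all 9 passed the filter on low counts, which kept 17975 genes. The members were listed by name, with no threshold on a measured value. Counts of single members in 1 library ranged from 163 (Sgcd) to 24383 (Dag1), of library totals of 50928458 to 84364189.

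The data were RNA-sequencing counts from skeletal muscle of C57BL/6 mice, 12 months old, all on a normal diet and all starved overnight before the muscle was taken. Sedentary wild-type mice gave 6 libraries, the exercise group another 6, and 3 more were labelled CD47-KO, mice carrying a deletion of the receptor CD47 (CD47-/-). The type of exercise, the muscle taken, the sex of the mice and the activity of the CD47-KO mice were not given in the sources used here. Nothing in the labels states that the libraries of a group came from separate animals, so a p-value here reflects spread among libraries alone, which may be technical.

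The complex links the actin cytoskeleton of the muscle fibre to the basement membrane. Dystrophin binds actin at its amino-terminal end and dystroglycan near its other end. Dystroglycan crosses the membrane and holds laminin outside through sugar chains added by a dedicated set of enzymes, while the sarcoglycans and sarcospan brace it within the membrane. Utrophin is the close relative of dystrophin that can take its place. Dysferlin belongs to the patch-repair machinery of the membrane rather than to the complex itself. Loss of several of these proteins causes muscular dystrophies, in which the fibre membrane tears during contraction.

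Several facts of the whole series touch the values below. Cd47, the gene named in the CD47-KO label, stood at 11.5, 12.1 and 12.1 CPM (read counts scaled to a common library size) in these 3 libraries and at 11.4 to 16.4 CPM in the sedentary ones. Its log2 fold change was -0.26 (SE 0.17, edgeR adjusted p = 0.295), so the count table did not mark the deletion by that test. The text therefore speaks of libraries labelled CD47-KO. With a correction for transcript GC content, described further on, the same value was -1.32 (edgeR adjusted p = 0.00231). Fibre genes were abundant in every library: actin Acta1 ranged from 16689 to 45129.9 CPM and the fast myosin Myh4 from 39361 to 119996 CPM. Sedentary library 1 stood apart through slow myosin Myh7, at 9790 CPM against 255 to 3504 CPM in the other sedentary libraries, and through 7 tendon markers summing to 782 CPM. Sedentary library 6 stood apart through 7 adipocyte markers, which summed to 567.6 CPM there and had a median of 143 CPM over the sedentary group. In bulk muscle, fewer cells of a type and less RNA per cell cannot be told apart, and this holds for every level below.

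Per kilobase of exon, the complex spanned a wide range in sedentary muscle. Sgca led with 107 ± 30.1 CPM per kb (SD, n = 6 sedentary libraries). Dag1 followed with 35.6 ± 14.5, Sspn with 15.5 ± 7.45, Sgcb with 14.5 ± 3.11 and Dysf with 10.3 ± 2.35 CPM per kb. Dmd (1.97 ± 1.14), Lama2 (1.77 ± 0.556) and Utrn (1.42 ± 0.535) lay lower, and Sgcd was the lowest at 0.568 ± 0.0773 CPM per kb. Sgca did not overlap Dag1, Dysf did not overlap Dmd, and Utrn did not overlap Sgcd in the sedentary libraries. All other neighbours in this order overlapped. The order was the same when the length of the longest coding transcript replaced the summed exons. In the exercise group Lama2 and Dmd exchanged places, with overlapping ranges. In the libraries labelled CD47-KO, Sgcb (26.2 ± 1.02, n = 3) stood second and overlapped Dag1 (23.0 ± 8.32), and on the coding-transcript length Dmd passed Dysf and Sgcd passed Utrn.

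**Figure D1:**
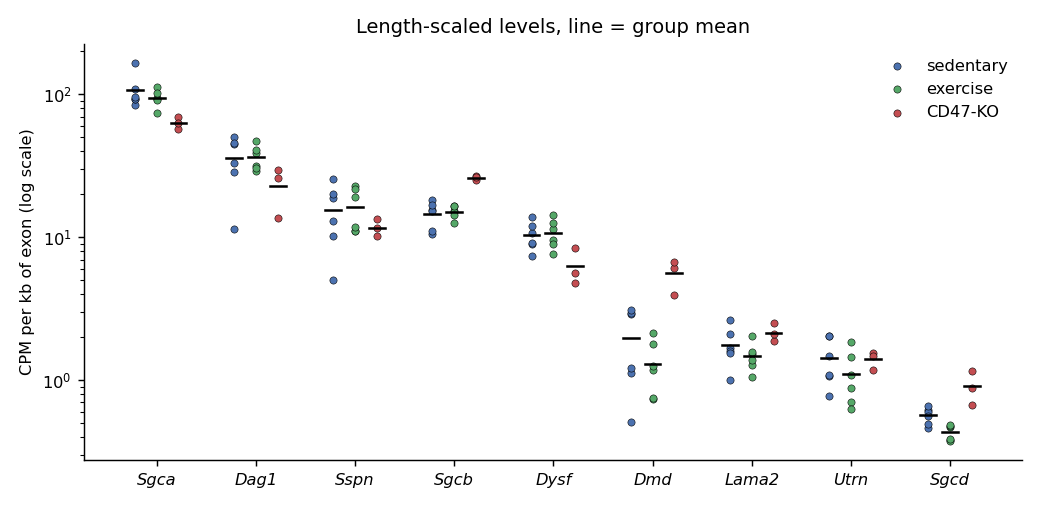
Level of each gene in CPM per kb of exon (log scale, genes ordered by their sedentary mean). Each point is 1 library and each line the group mean; Sgca lies highest and Sgcd lowest in all 3 groups, and the red points (CD47-KO) of Dmd, Sgcb and Sgcd lie above the other groups.

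Dystrophin transcripts varied most among the sedentary libraries, with a coefficient of variation of 57.8% for Dmd against 13.6% (Sgcd) to 48.2% (Sspn) for the other members. Dmd (ENSMUSG00000045103.17) covers chrX:82948870-85206141 on the plus strand of GRCm38, 2257 kb of which 1.05% is exon. Several starts along the gene give long and short dystrophins, and RefSeq (GRCm38.p6) lists 2 starts, near either end of the gene, in the table used here. The 250 bases before both starts are shown because Dmd had the largest change of the 9 genes. Capitals mark matches on either strand to 5 motifs: the GC box GGGCGG, the E-box CAGCTG, the TATA box TATAAA, the CArG box bound by serum response factor and the MEF2 site bound by the MEF2 factors of muscle. Both windows are written 5′ to 3′ on the plus strand, the first at chrX:82948620-82948869 and the second at chrX:85048045-85048294.
Dmd, upstream start: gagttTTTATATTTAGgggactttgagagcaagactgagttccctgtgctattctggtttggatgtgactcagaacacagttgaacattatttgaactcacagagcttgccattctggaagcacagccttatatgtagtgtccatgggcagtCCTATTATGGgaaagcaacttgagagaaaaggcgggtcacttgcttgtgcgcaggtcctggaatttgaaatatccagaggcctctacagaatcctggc
Dmd, internal start: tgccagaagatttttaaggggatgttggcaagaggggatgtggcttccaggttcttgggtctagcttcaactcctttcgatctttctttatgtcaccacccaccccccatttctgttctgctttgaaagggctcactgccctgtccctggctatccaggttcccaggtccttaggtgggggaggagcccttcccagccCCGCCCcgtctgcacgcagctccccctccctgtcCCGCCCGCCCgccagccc
The upstream window held a TATAAA match, a CArG box 98 bases before the start and a MEF2 site, and 5 bases of the MEF2 site were shared with the TATAAA match. The internal window held 3 GGGCGG matches, 2 bases of which were shared, and none of the others. Among 32851 windows of 250 bases before RefSeq starts, 1.47% held a CArG box, 2.92% a MEF2 site, 12.4% the TATA box, 13% the E-box and 32.7% the GC box. A match describes the letters only, and counts per gene do not separate transcripts from these starts.

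Dmd stood at 12.2, 26.8, 29.2, 68.8, 69.9 and 73.8 CPM in sedentary libraries 1 to 6. It stood at 17.5, 18.0, 27.9, 42.6, 50.7 and 29.9 CPM in exercise libraries 1 to 6. The 3 libraries labelled CD47-KO held 94.8, 146 and 161 CPM and lay above all 12 others. Within the sedentary and the exercise groups, the libraries numbered 1 to 3 were low and those numbered 4 to 6 high. Dmd was 2.86-fold higher in the libraries labelled CD47-KO than in sedentary ones (log2 fold change 1.51, SE 0.46, edgeR adjusted p = 0.0284). Against the exercise group it was 4.3-fold higher (log2 fold change 2.10, SE 0.46, edgeR adjusted p = 0.00392).

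Utrophin overlapped between the groups. Utrn had a lowest, median and highest level of 13.4, 22.1 and 35.1 CPM in sedentary, of 10.7, 16.8 and 31.8 CPM in exercise, and stood at 20.2, 26.4 and 25.4 CPM in the libraries labelled CD47-KO. No group stood apart. The log2 fold change was -0.02 (SE 0.35, edgeR adjusted p = 0.975) against sedentary and 0.35 (SE 0.35, edgeR adjusted p = 0.530) against exercise. All 3 libraries labelled CD47-KO nevertheless lay above every library numbered 4 to 6. Against exercise libraries 4 to 6 alone Utrn was called higher (0.97, edgeR adjusted p = 0.00784), also with the GC correction described further on (0.78, adjusted p = 0.0495), and against sedentary libraries 4 to 6 alone it had 0.56 (adjusted p = 0.0715). Inside the sedentary and exercise groups, Utrn ran opposite to Dmd: it was higher in the libraries numbered 1 to 3 (18.5 to 35.1 CPM) than in those numbered 4 to 6 (10.7 to 18.8 CPM), with a slight overlap. The ratio of dystrophin to utrophin transcripts, each per kb of exon, therefore spread widely. It was 0.250, 0.549 and 0.825 in sedentary libraries 1 to 3 and 3.70, 2.74 and 2.83 in sedentary libraries 4 to 6. In exercise libraries 1 to 6 it was 0.501, 0.407, 1.08, 2.55, 3.40 and 1.42, and in the libraries labelled CD47-KO 3.38, 3.97 and 4.54. Utrn exceeded Dmd in 5 of 6 libraries numbered 1 to 3 and in none of the other 9. This ratio is not touched by the scaling between libraries, but the GC content of the transcripts, 41.5% for Dmd and 47.9% for Utrn, differs.

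Dystroglycan, the laminin receptor at the centre of the complex, was second in level in sedentary and exercise muscle. Dag1 stood at 319, 288, 289, 182, 209 and 72.2 CPM in sedentary libraries 1 to 6. The exercise group had a lowest, median and highest level of 184, 224 and 302 CPM. The libraries labelled CD47-KO held 166, 86.6 and 187 CPM. Sedentary library 6 and CD47-KO library 2 were the lowest of all 15, and the 3 groups overlapped. For the libraries labelled CD47-KO, the log2 fold change was -0.63 (SE 0.37, edgeR adjusted p = 0.254) against sedentary and -0.66 (SE 0.37, edgeR adjusted p = 0.234) against exercise.

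The sarcoglycans, which form a tight unit in the membrane and fail together in the sarcoglycanopathies, did not keep a common direction. Sgca (chr11:94962791-94976327, minus strand) encodes the α subunit, found in striated muscle. Sgcb (chr5:73632749-73647790, minus strand) encodes the β subunit, and Sgcd (chr11:46896253-47988969, minus strand) the δ subunit, both also made outside striated muscle. The windows before the starts of Sgca and Sgcb are shown because these neighbours in the protein complex moved in opposite directions. The first is chr11:94976328-94976577 and the second chr5:73647791-73647987, the part of the RefSeq window that lies outside annotated exons. Both are written 5′ to 3′ on the minus strand with the same motifs in capitals.
Sgca: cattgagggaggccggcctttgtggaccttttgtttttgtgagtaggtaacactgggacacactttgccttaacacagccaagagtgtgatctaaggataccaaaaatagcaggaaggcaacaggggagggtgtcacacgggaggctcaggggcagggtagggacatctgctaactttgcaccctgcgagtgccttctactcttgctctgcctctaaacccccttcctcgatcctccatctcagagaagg
Sgcb: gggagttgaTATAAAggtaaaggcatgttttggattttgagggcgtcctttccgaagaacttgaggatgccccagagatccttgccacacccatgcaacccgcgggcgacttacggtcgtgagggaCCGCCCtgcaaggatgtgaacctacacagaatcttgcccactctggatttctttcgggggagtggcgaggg
The Sgca window held none of the 5 motifs, which says only that these letters are not in these bases. The Sgcb window held TATAAA 241 bases and GGGCGG 124 bases before the start, with no shared bases. Sgcd had 1 GGGCGG match 23 bases before its RefSeq start, inside an annotated exon, and that window is not printed. All 9 members had at least 1 of the 13 RefSeq windows found for them, and Lama2 held the only other CArG box, 39 bases before its start.

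Sgca stood at 147, 159.9, 161, 167, 188 and 288 CPM in sedentary libraries 1 to 6. The exercise group had a lowest, median and highest level of 129, 162 and 194 CPM. The libraries labelled CD47-KO held 120, 99.3 and 109 CPM and lay below all 12 others. Sgca was 1.69-fold lower there than in sedentary libraries (log2 fold change -0.76, SE 0.22, edgeR adjusted p = 0.0215). Against the exercise group the value was -0.58 (SE 0.22, edgeR adjusted p = 0.0694), which did not pass.

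Sgcb went the other way and was the steadiest member in the libraries labelled CD47-KO. It stood at 42.4, 62.7, 61.9, 73.7, 68.0 and 44.8 CPM in sedentary libraries 1 to 6. The exercise group had a lowest, median and highest level of 51.3, 61.5 and 67.4 CPM. The libraries labelled CD47-KO held 109, 101 and 107 CPM, above every library of both groups. Sgcb was 1.80-fold higher than in sedentary (log2 fold change 0.85, SE 0.18, edgeR adjusted p = 0.00366) and 1.73-fold higher than in exercise libraries (0.79, SE 0.18, edgeR adjusted p = 0.00531).

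Sgcd, the scarcest transcript of the set, rose with it. Its sedentary libraries 1 to 6 held 3.82, 5.10, 4.98, 5.50, 4.66 and 4.09 CPM. Exercise libraries 1 to 6 held 3.18, 3.11, 3.21, 3.91, 3.97 and 4.03 CPM, and the libraries labelled CD47-KO 5.55, 7.33 and 9.65 CPM. The lowest of these 3 lay just above the highest sedentary library. Sgcd was 1.60-fold higher than in sedentary (log2 fold change 0.68, SE 0.20, edgeR adjusted p = 0.0256) and 2.10-fold higher than in exercise libraries (1.07, SE 0.20, edgeR adjusted p = 0.00130). The ratio of Sgca to Sgcb, per kb of exon, was 5.30 to 15 in sedentary and 4.49 to 7.51 in exercise libraries, and 2.29 to 2.55 in the libraries labelled CD47-KO.

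Sarcospan, the small membrane protein that stabilises the sarcoglycan unit, followed the numbering of the libraries more than their group. Sspn stood at 128, 93.7, 99.9, 65.0, 51.2 and 25.3 CPM in sedentary libraries 1 to 6. Exercise libraries 1 to 6 held 114, 108, 95.8, 55.3, 55.7 and 59.2 CPM, and the libraries labelled CD47-KO 58.1, 66.8 and 50.8 CPM. All 3 lay below the libraries numbered 1 to 3; libraries 1 and 3 of them lay among those numbered 4 to 6, and library 2 just above. The log2 fold change was -0.40 (SE 0.40, edgeR adjusted p = 0.529) against sedentary and -0.48 (SE 0.40, edgeR adjusted p = 0.442) against exercise.

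Lama2, the α chain of the main muscle laminin and the extracellular partner of dystroglycan, had a lowest, median and highest level of 16.4, 27.0 and 43.3 CPM in sedentary libraries. Exercise libraries ranged from 17.1 to 33.2 CPM, and the libraries labelled CD47-KO held 30.7, 34.4 and 40.8 CPM, overlapping both groups. Its log2 fold change was 0.29 (SE 0.25, edgeR adjusted p = 0.469) against sedentary and 0.55 (SE 0.25, edgeR adjusted p = 0.137) against exercise. Dysf, the calcium sensor that brings vesicles to a membrane wound, stood at 88.7, 101, 115, 61.3, 74.4 and 75.6 CPM in sedentary libraries 1 to 6. Exercise libraries ranged from 64.2 to 120.1 CPM, and the libraries labelled CD47-KO held 47.0, 40.0 and 69.8 CPM, of which the third lay inside both groups. Dysf was 1.72-fold lower than in exercise libraries (log2 fold change -0.78, SE 0.25, edgeR adjusted p = 0.0384). That call was lost with DESeq2-type size factors (0.0550), without a filter on low counts (0.0644), with only those groups in the fit (0.0522) and against numbers 4 to 6 alone (-0.44, 0.182), and the first and second of these left 3 members called. Against sedentary the value was -0.72 (SE 0.25, edgeR adjusted p = 0.0549), which did not pass. It passed there with DESeq2 (0.0322), limma-voom (0.0393), a filter of 1 CPM in 3 libraries (0.0405) and the replicate block (0.00131). Each of the first 3 settings gave 5 members called. The block, by library number, leans on libraries 1 to 3, the only numbers of the CD47-KO group.

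**Figure D2:**
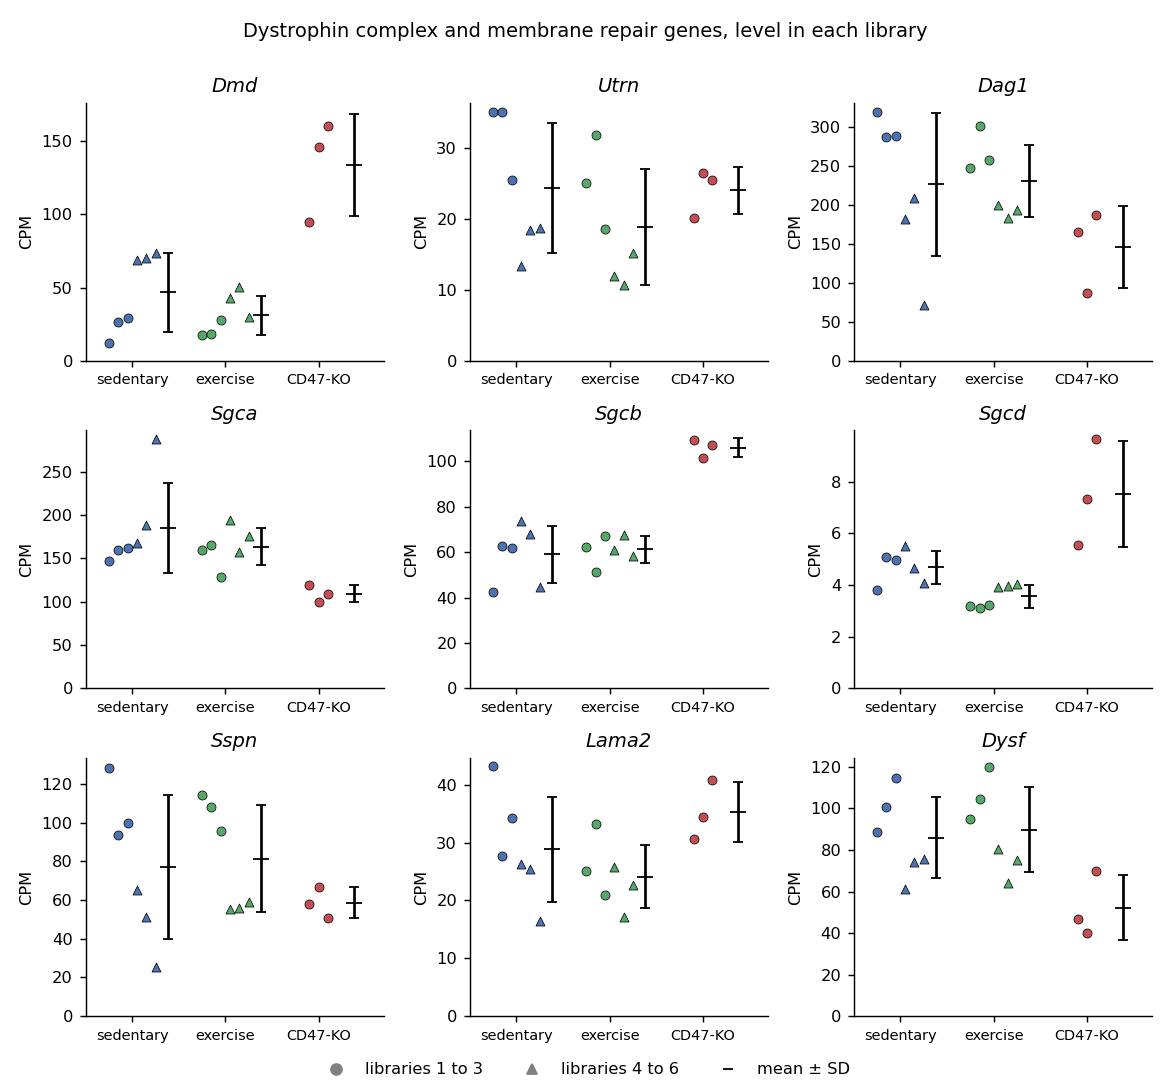
Level of the 9 genes in CPM (linear axes from 0) in each sedentary (blue), exercise (green) and CD47-KO (red) library, with mean ± SD beside the points. Circles are libraries numbered 1 to 3 and triangles those numbered 4 to 6; Dmd, Sgcb and Sgcd lie higher and Sgca lower in all 3 CD47-KO libraries, and Sspn and Dysf separate circles from triangles in the sedentary and exercise groups.

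Exercise was compared with rest in the 12 libraries of those groups. None of the 9 genes passed (0 of 9, as for 0% of all 17975 genes). The log2 fold changes were -0.59 (SE 0.39) for Dmd, -0.39 (SE 0.17) for Sgcd, -0.37 (SE 0.29) for Utrn, -0.26 (SE 0.21) for Lama2 and -0.18 (SE 0.17) for Sgca on the log2 scale. Dag1, Sgcb, Sspn and Dysf had values of 0.03 to 0.08, and the edgeR adjusted p was 0.9998 for every member. Only Sgcd had an unadjusted p under 0.05 (0.0335), where 665 of all genes did, and DESeq2 and limma-voom called 0 of 9 members as well, while DESeq2 called 9 genes in all. No member separated the groups without overlap (0 of 9, against 0.161% of all genes). By the number in the title, Utrn and Sgcd were lower in exercise than in the sedentary library of the same number in 6 of 6 pairs. The labels give no pairing of libraries, and the share of all genes with this pattern was not counted. With a block for the number, the log2 fold changes of Utrn and Sgcd were -0.39 and -0.39 (edgeR adjusted p = 0.826 for both). The median of the 9 was -0.18 and that of all genes -0.03.

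The libraries of both groups fell into sets by their number, 1 to 3 and 4 to 6, a division seen in the data and not given as a study group. Dag1, Sspn and Dysf were higher in every library numbered 1 to 3 than in any numbered 4 to 6, and Dmd was lower. These are 4 of 9 members without overlap (3 higher, 1 lower), against 16.5% of all genes (8.01% higher, 8.47% lower), given as a description with no test. Dmd ranged from 12.2 to 29.2 CPM in numbers 1 to 3 and from 29.9 to 73.8 CPM in numbers 4 to 6, so its 2 ranges nearly touched. Sspn ranged from 93.7 to 128 CPM and from 25.3 to 65.0 CPM, Dag1 from 248 to 319 CPM and from 72.2 to 209 CPM. Within numbers 1 to 3 the exercise effect on Dmd was -0.11 (SE 0.31) and within numbers 4 to 6 it was -0.79 (SE 0.31), neither past the threshold. The difference of 0.68 (SE 0.44, edgeR adjusted p = 0.871) did not pass either, and 0 of 9 members (0% of all genes) had an exercise effect that differed between the sets. Sgcd was 3.11 to 3.21 CPM in exercise libraries 1 to 3 and 3.91 to 4.03 CPM in exercise libraries 4 to 6, against 3.82 to 5.10 and 4.09 to 5.50 CPM in the sedentary ones. Summed levels of a few other lists divided along the same line: 13 basement membrane genes reached 443 to 728 CPM in numbers 1 to 3 and 277 to 369 CPM in numbers 4 to 6, and 10 integrin adhesion genes 811 to 892 and 516 to 763 CPM. Schwann cell and nerve markers (8 of 8 in the table) summed to 69.8 to 270 CPM and 35.6 to 59.2 CPM. The sums of all remaining lists overlapped between the sets, such as 8 endothelial markers (247 to 482 and 187 to 367 CPM) and 10 fibre markers (134206 to 239452 and 141382 to 167621 CPM). The part of any of these lists in the members' levels was not tested.

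Between the libraries labelled CD47-KO and sedentary muscle, Dmd, Sgcb and Sgcd rose and Sgca fell. That is 4 of 9 genes, where 20.7% of all genes passed, with 3 higher (11.9% of all genes) and 1 lower (8.75%). The same 4 genes did not overlap between the groups, against 26.0% of all genes (15.7% higher, 10.3% lower). The median of the 9 log2 fold changes was -0.02 and that of all genes -0.11. Against the exercise group, Dmd, Sgcb and Sgcd rose and Dysf fell, again 4 of 9 against 20.6% of all genes (12.2% higher, 8.34% lower). Dmd, Sgcb and Sgcd lay above and Sgca below every exercise library, 4 of 9 against 31.7% of all genes (17.5% higher, 14.1% lower). Both comparisons use the same 3 libraries, so they are not independent.

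Some of these calls were lost when a single library was left out. Without sedentary library 3 the edgeR adjusted p of Dmd against sedentary was 0.0514, and without CD47-KO library 2 or 3 it was 0.1002 or 0.1005. Sgca lost its call without CD47-KO library 1 (0.0697), 2 (0.0780) or 3 (0.0994), and Sgcd without sedentary library 1 (0.0566) or CD47-KO library 2 (0.0943) or 3 (0.169). Members called fell to 1 without CD47-KO library 2 and to 2 without CD47-KO library 3, while calls over all genes fell from 3719 to 2245 and 2178. Sgcb kept its call without any single library, with an adjusted p of 0.00150 to 0.0211. Dysf passed without sedentary library 4 (0.0482) or CD47-KO library 3 (0.0452). Against exercise, Dysf lost its call without sedentary library 2, 5 or 6, exercise library 1, 2, 3, 4 or 6, or CD47-KO library 1 or 2, with adjusted p of 0.0521 to 0.191. There, Sgca passed without sedentary library 1 (0.0398) or 6 (0.0235), and Lama2 without sedentary library 6 (0.0344). The Dmd, Sgcb and Sgcd calls against exercise held without any single library. With only the CD47-KO and sedentary libraries in the fit, Sgcb alone passed, and the edgeR adjusted p was 0.0517 for Dmd, 0.0850 for Sgca and 0.0579 for Sgcd. Without both sedentary libraries that stood apart, 1 and 6, the count was 4 against sedentary and 6 against exercise, where Sgca and Lama2 then passed too. Over all genes the calls against exercise rose at the same time from 3698 of 17975 to 5080 of 17643.

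The set of sedentary libraries also mattered for the size of the Dmd difference. Against sedentary libraries 1 to 3 alone it was 2.63 on the log2 scale (edgeR adjusted p = 0.000457), and against libraries 4 to 6 alone it was 0.97 (0.0177). Sgcb held at 1.00 (0.00186) and 0.82 (0.0159) and Sgca at -0.44 (0.0386) and -0.92 (0.0141). Sspn was lower against numbers 1 to 3 (-0.80, 0.00548) and 0.36 (0.409) against numbers 4 to 6. Dag1 (-0.96, 0.0159) and Dysf (-0.88, 0.00997) passed against numbers 1 to 3 and had values of -0.03 (0.966) and -0.38 (0.242) against numbers 4 to 6. Sgcd had 0.77 (0.0257) and 0.71 (0.0507).

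Transcript GC content moved with these fold changes. Across 10396 genes of sufficient level, Spearman's rho between the log2 fold change and GC content was -0.670 for CD47-KO against sedentary and 0.0167 for exercise against sedentary, over genes that share the same libraries. Genes below 42.3% GC had a median of 1.30 and genes above 58.1% GC a median of -0.58. The called members were placed along this trend. Sgcd (38.7% GC), Dmd (41.5%) and Sgcb (43.9%), which rose, had the lowest GC content of the 9. Sgca (56.7%), which fell, had the highest. Dysf (55.5%) and Dag1 (52.8%) came next to Sgca, with Utrn (47.9%), Lama2 (47.7%) and Sspn (45.8%) between. Among 20 bins of genes by GC content, Dmd at 1.51 and Sgcb at 0.85 lay above the medians of the nearest bins (1.17 and 0.66). Both lay inside the quartiles of these bins. Sgcd at 0.68 lay below the median (1.43) and the lower quartile (0.89) of its bin. Sspn at -0.40 (SE 0.40) lay below the lower quartiles (0.05 and -0.05) of the bins on either side, whose medians were 0.45 and 0.35. Dag1 at -0.63 lay just below the lower quartile (-0.61) of the nearest bin.

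**Figure D3:**
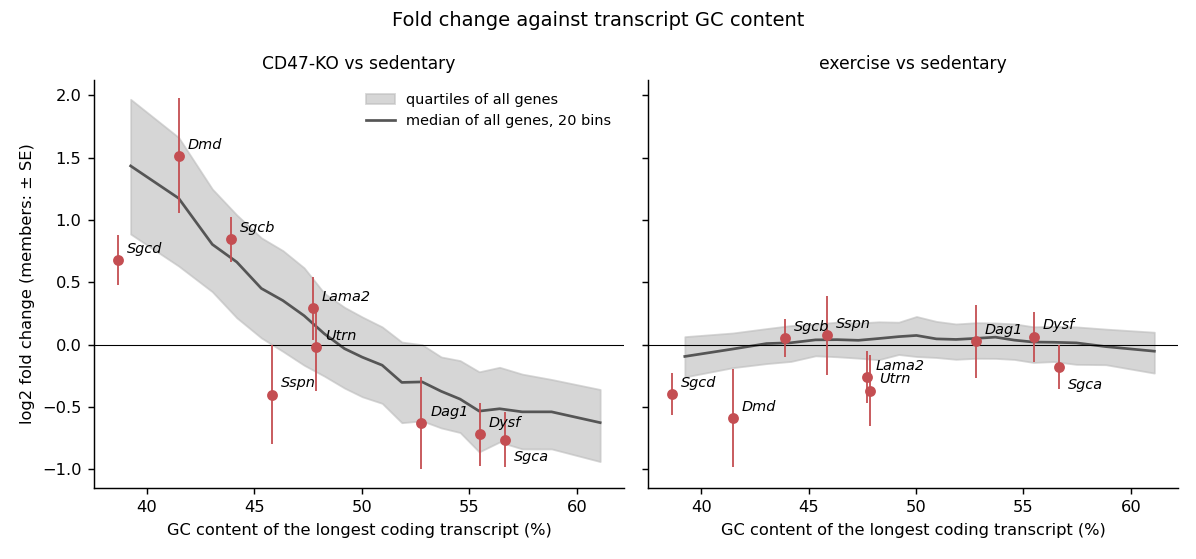
Log2 fold change against the GC content (%) of the longest coding transcript; the line is the median and the band the quartiles of all genes in 20 bins, and red points with ± SE are the 9 genes. The line falls from left to right for CD47-KO against sedentary and is nearly flat for exercise against sedentary.

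When each library's trend on GC content was removed before the same test, 1 of 9 members passed against sedentary (8.32% of all genes), Sgcd as lower (4.36% of all genes). Over all genes the split changed from 2146 higher and 1573 lower to 711 higher and 784 lower. Dmd had 0.48 (SE 0.37, edgeR adjusted p = 0.504), Sgcb 0.13 (SE 0.13, adjusted p = 0.654) and Sgca -0.30 (SE 0.20, adjusted p = 0.432). Sgcd turned to -0.94 (SE 0.25, adjusted p = 0.0297). This last value depended on which transcripts gave the GC content: with the mean of all annotated transcripts (41.9% instead of 38.7%), a setting chosen after seeing the data, it was -0.49 (adjusted p = 0.147). Against exercise, 0 of 9 passed (8.62% of all genes) by edgeR, 3 of them with an unadjusted p under 0.05. Dmd had the largest value there, 1.01 (SE 0.36, adjusted p = 0.104). With the correction and numbers 1 to 3 alone, Dmd was still called against exercise (1.44, adjusted p = 0.00369) and sedentary (1.28, 0.00658). It was also called with the correction and the replicate block (1.52, 0.000653, and 1.10, 0.00621). The CD47-KO libraries carry only numbers 1 to 3, so this block leans on the same libraries and is not a separate check. With the correction and numbers 4 to 6 alone, Dmd had 0.65 (0.0938) against exercise and -0.07 (0.879) against sedentary. In the fit over all libraries with GC content and length both corrected, it had 0.54 (0.623) and 0.06 (0.969). In the fit over all libraries the direction of Dmd, Sgcb and Sgca held in both comparisons, although Sgca was at 0.02 against exercise once transcript length was corrected too. That of Sgcd turned in both (-0.54, adjusted p = 0.205, against exercise). The correction takes the whole trend as unwanted, and how much of it belongs to the mice or to the libraries cannot be told apart here.

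**Figure D4:**
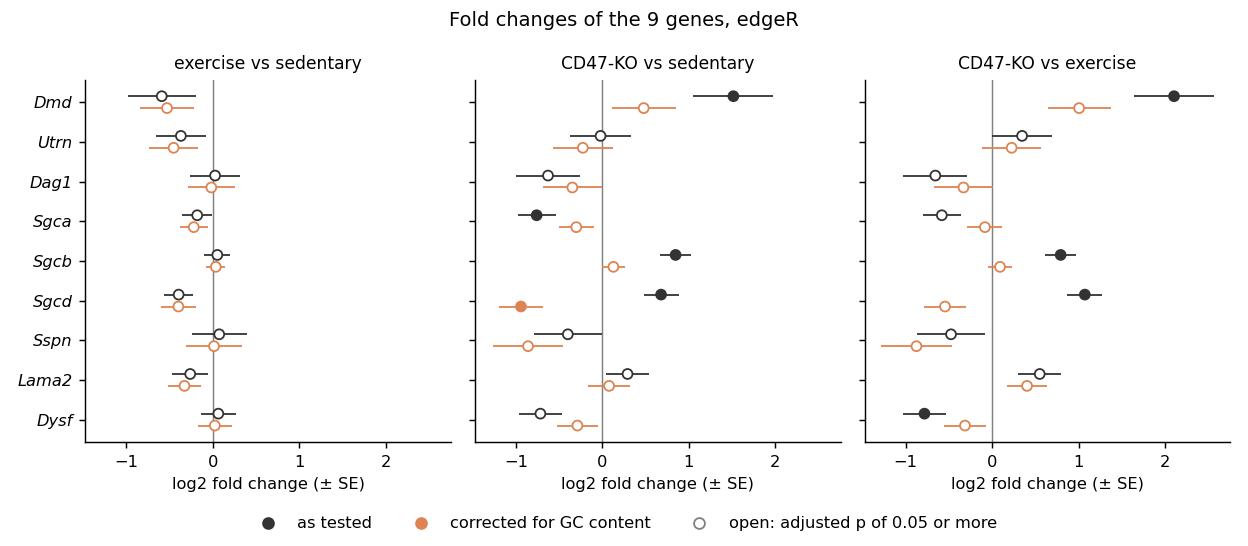
Log2 fold change (± SE) of the 9 genes in the 3 comparisons, as tested (black) and corrected for GC content (orange); filled points passed an edgeR adjusted p of 0.05. Dmd, Sgcb and Sgcd lie right of 0 in both CD47-KO comparisons before the correction, and the only filled orange point is Sgcd, left of 0.

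The other genes of the pathway came from lists by role. Of 10 tested partners inside the complex (the remaining sarcoglycans, syntrophins, dystrobrevins, neuronal nitric oxide synthase and caveolin 3), 1 rose and 3 fell in the libraries labelled CD47-KO against sedentary, with a list median of -0.23. Cav3, the muscle caveolin, fell from 39.0 ± 14.2 to 18.9 ± 2.25 CPM (log2 fold change -1.04, SE 0.25, edgeR adjusted p = 0.00696). Dtnb, β-dystrobrevin, fell from 3.33 ± 0.350 to 1.65 ± 1.03 CPM (-1.01, SE 0.32, adjusted p = 0.0325). Sntb1, the β1-syntrophin, rose from 2.09 ± 0.690 to 4.91 ± 0.409 CPM (1.23, SE 0.32, adjusted p = 0.0115). After the GC correction Dtnb alone passed against sedentary, at -1.54 (adjusted p = 0.00746). Against exercise, Sntb1 (1.13, adjusted p = 0.0229) and Dtnb (-1.54, adjusted p = 0.00667) passed with the correction.

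Of 17 tested enzymes that build the laminin-binding sugar chain of dystroglycan, 0 rose and 4 fell, with a median of -0.44. These were Pomgnt1, which extends the O-mannose core (-0.86, SE 0.18, edgeR adjusted p = 0.00284), Gmppb, which makes the mannose donor (-0.92, SE 0.25, adjusted p = 0.0174), Dolk, dolichol kinase (-0.59, SE 0.17, adjusted p = 0.0193), and Pomk, the O-mannose kinase (-0.74, SE 0.24, adjusted p = 0.0371). None passed after the GC correction by edgeR, with 5 at an unadjusted p under 0.05, and Pomk had -0.69 (adjusted p = 0.0561). Among 13 other laminins and basement membrane ligands 0 passed by edgeR, with 3 at an unadjusted p under 0.05, and the smallest p belonged to Lama4, the laminin chain of vessels (-0.82, SE 0.32, adjusted p = 0.0786). Against exercise 0 rose and 6 fell among the 17 enzymes, and 2 were lower after the GC correction: Pomk (-0.93, adjusted p = 0.0118) and Rxylt1, named after its values were seen (-0.68, adjusted p = 0.0190). There, 0 passed among the 13 matrix genes (1 at an unadjusted p under 0.05).

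Of 25 membrane repair genes other than Dysf, 2 rose and 5 fell, with a median of -0.22. Vps4b, the ATPase of the ESCRT machinery that sheds damaged membrane, rose (1.01, SE 0.20, edgeR adjusted p = 0.00197), and so did Ano5, a protein whose loss causes a limb-girdle dystrophy (1.36, SE 0.32, adjusted p = 0.00694). Ehd1 (-0.85, SE 0.19, adjusted p = 0.00485) and Ehd2 (-0.95, SE 0.25, adjusted p = 0.0140), which remodel endocytic membranes, fell. After the GC correction 0 of 25 passed by edgeR, with 2 at an unadjusted p under 0.05. The integrins, the other laminin link of the fibre, gave 2 higher and 2 lower of 10: Itgb1, the β1 chain (0.80, SE 0.28, adjusted p = 0.0497), and Lims1, an adaptor of the integrin-linked kinase (1.67, SE 0.48, adjusted p = 0.0202), rose. Itga7, the muscle laminin receptor chain (-0.75, SE 0.23, adjusted p = 0.0297), and Ilk, the kinase itself (-0.54, SE 0.15, adjusted p = 0.0208), fell. With the GC correction 0 of 10 passed by edgeR, and 0 had an unadjusted p under 0.05.

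Of 20 genes of the costamere, the ring of cytoskeleton that the complex anchors, 1 rose and 1 fell. Des, desmin, went from 4818 ± 1069.7 to 2610 ± 135 CPM (-0.88, SE 0.22, edgeR adjusted p = 0.0105) and Ank3, ankyrin G, from 69.9 ± 22.1 to 132 ± 13 CPM (0.91, SE 0.29, adjusted p = 0.0357). Among 11 regeneration and satellite cell genes, 0 rose and 1 fell: Myod1, the myogenic factor, from 11.4 ± 4.82 to 4.57 ± 2.26 CPM (-1.32, SE 0.45, adjusted p = 0.0469). None of these 3 passed against sedentary after the GC correction, while Ank3 passed against exercise with it (1.01, adjusted p = 0.0271). Exercise against sedentary gave 0 calls in every one of these lists by edgeR, and 0 of their genes had an unadjusted p under 0.05. Beside these counts, 20.7% of all genes were called for CD47-KO against sedentary, and 8.32% after the GC correction. Against exercise these shares were 20.6% and 8.62%, and for exercise against sedentary the share was 0%. No list was tested as a set.

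**Figure D5:**
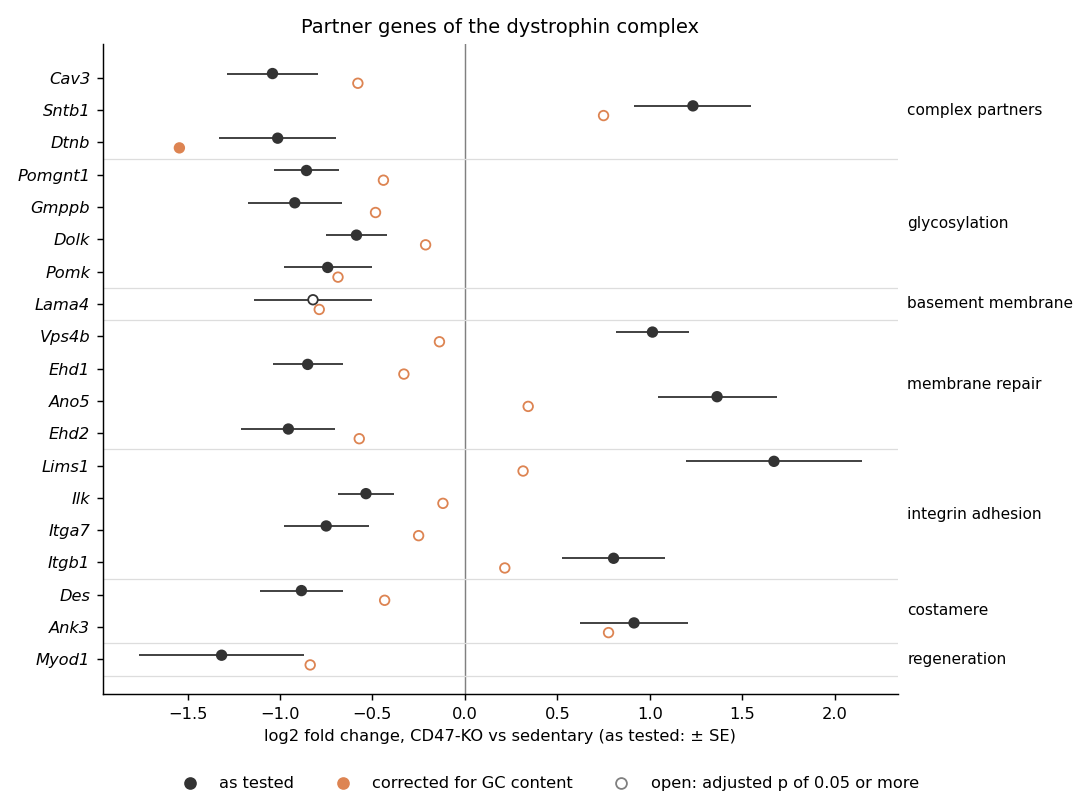
Log2 fold change, CD47-KO against sedentary, of the genes described from each list, as tested (black, ± SE) and corrected for GC content (orange); filled points passed an edgeR adjusted p of 0.05. Most orange points lie nearer to 0 than the black ones, and Dtnb is the only filled orange point.

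Other markers moved in the same libraries. Of 10 fibre markers, 0 rose and 2 fell against sedentary, Acta1 (-0.98, SE 0.21, edgeR adjusted p = 0.00313) and Ckm (-0.92, SE 0.26, adjusted p = 0.0179), and the 10 summed to 107588 to 141224 CPM against 134206 to 217636 CPM. Fibroblast markers (10 of 10 in the table) summed to 712 to 791 CPM against 459.5 to 1646 CPM, with 2 higher and 1 lower. Sums of 8 smooth muscle and pericyte markers were 304 to 429 CPM against 207 to 368 CPM (1 higher, 3 lower), and those of 9 macrophage markers 43.9 to 61.3 CPM against 16 to 76.0 CPM (1 higher). Endothelial markers (0 higher, 1 lower of 8) summed to 224 to 270.5 CPM against 187 to 482.5 CPM, nerve markers (0 higher, 2 lower of 7 tested) to 30.5 to 56.0 CPM against 44.1 to 270.2 CPM, and the adipocyte and tendon lists had 0 calls by edgeR (0 and 1 genes at an unadjusted p under 0.05). These counts stand beside 11.9% of all genes higher and 8.75% lower. After the GC correction (8.32% of all genes called), 1 fibre marker was higher and 0 were lower. The fibroblast and the smooth muscle and pericyte lists then had 0 higher and 1 lower each, and the other marker lists 0 calls by edgeR. No marker of these lists was at 0 in all 15 libraries. Their part in the members' differences was not tested.

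The genes whose levels followed Dmd and Sgca most closely over the 15 libraries were named by a rule, as a likeness with no test. Among 9717 genes with a mean log2-cpm of at least 1, Lrif1 (Pearson r = 0.975), Cul5 (0.975), Fam8a1 (0.974), Ptbp2 (0.972) and Esco1 (0.964) were most like Dmd. Their GC content was 36.5 to 46.3%, against 41.5% for Dmd, and their transcripts had 3103 to 5945 bases, against 14910 for Dmd. Those most like Sgca were Rpl32 (0.970), Rpp25l (0.970), Rps23 (0.968), Rps16 (0.967) and Stub1 (0.966). Their GC content was 46.0 to 60.8%, against 56.7% for Sgca, and their transcripts had 856 to 1803 bases, against 1724 for Sgca. All these values share the same 15 libraries and their differences in GC trend and number.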

How the data were processed

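RNA sequencing of skeletal muscle was deposited as 1 table of raw read counts for 22798 gene symbols in 15 libraries, with no normalization by the authors. The tools named in the submitters' processing notes are HTSeq 0.6.1, Trimmomatic 0.30 and HISAT2 2.0.1, with the GRCm38 build. No source used here gave the strand setting, so overlapping antisense genes cannot be told apart. Of deposited counts from 1 to 15, 32.1% to 33.6% were 4, 8 or 12 in the libraries labelled CD47-KO. In the sedentary and exercise libraries this share was 41.7% to 50.2%, without overlap. How these values arose was not given or tested, and low counts may carry fewer independent reads than their size. The share differed with the label, and its part in the CD47-KO differences was not tested. Library totals were 50928458 to 70774311 (sedentary), 54851831 to 77628546 (exercise) and 76005277 to 84364189 (CD47-KO). No pair of libraries within a group agreed within sampling noise (lowest chi-square per degree of freedom 72.0).

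Counts were tested with edgeR 4.0.16 (quasi-likelihood, TMM scaling, default expression filter, 1 fit over all 15 libraries, R 4.3.3), with Benjamini-Hochberg adjustment over 17975 genes and a threshold of 0.05. Levels are TMM-scaled CPM. The log2-cpm values behind the correlations and the GC trend of each library used a prior count of 2. DESeq2 1.42.0, limma-voom 3.58.1, other scalings and filters, single libraries left out, library sets and corrections for GC content or length were alternatives. The GC correction removed each library's lowess trend (span 0.3) on the GC content of the longest coding transcript in GENCODE M21 (GRCm38), and exon lengths came from the same annotation. Scripts were tested on simulated data. Same-numbered exercise and sedentary libraries deviated together (correlations 0.273 to 0.539 over 6 pairs), but only 2 of 6 exercise libraries matched best with their own number. The number came from the titles, and exercise libraries 4 to 6 carry other numbers in their descriptions. A block for the number changed no call of the 9 genes for exercise against sedentary. The members and lists were chosen with earlier results of these data known. From each list the 4 genes with the smallest adjusted p below the threshold in CD47-KO against sedentary were named, or the single smallest where none passed; for Dmd and Sgca, the 5 genes with the highest Pearson r. Of the genes so named, 1 is not reported here. Sequences were from RefSeq (GRCm38.p6).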

Additional observations from a re-analysis of the deposited data

Results flagged for a closer look

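Of 18 checks, 9 genes in each of the sedentary and exercise groups, 1 gene had a library far from the others. Sgca stood at 288 CPM in sedentary library 6, and the next library of the group at 188 CPM. The gap was 0.704 of the range of the group, above the critical value of 0.625 for 6 libraries. Chance sets apart about 1 in 20 such groups.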

How the results depend on the processing

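Over the alternatives run for the 9 genes, 230 of 288 values against exercise and 217 of 288 against sedentary (CD47-KO), and 275 of 297 for exercise against sedentary, kept direction and side of the threshold. Corrections for GC content with 1 set of numbers alone, and on the mean GC of all transcripts, were chosen after seeing the data. The cause of the changes was not tested. Depth limits Sgcd most, with 163 to 831 counts.

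Genes called for exercise against sedentary (0) became 9 with DESeq2, 1 with a block for the set of numbers, 2 with the GC correction and 1 with mean GC. For CD47-KO against sedentary, members called (4) became 1 with only those groups, 7 with a replicate block, 7 with numbers 1 to 3 alone, 1 with the GC correction, 1 with GC and length, 0 with GC and numbers 4 to 6, 0 with mean GC, and 1 to 5 with single libraries left out. All genes called (3719) became 5588 with numbers 1 to 3, 1495 with GC, 1580 with GC and length, 2395 with GC and block, 1492 with mean GC, and 2178 to 3881 with single libraries left out. Against exercise, members called (4) became 0 with GC, 0 with GC and length, 2 with GC and numbers 1 to 3, 1 with GC and numbers 4 to 6, and 0 with mean GC. All genes called there (3698) became 1550, 1789 and 1496 with GC, GC and length, and mean GC, and 2292 to 4563 with single libraries left out. CD47-KO libraries share only a number with the others (correlations -0.192 to 0.208 with sedentary, -0.0925 to 0.309 with exercise, 1 of 3 best with its own number in each). The replicate block gave 6 members against exercise, and 4842 and 4980 genes against sedentary and exercise.

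Reversed log2 fold changes for exercise against sedentary were: numbers 1 to 3, Dag1 -0.17 and Sspn -0.036; numbers 4 to 6, Sgcb -0.0017; GC, Dag1 -0.017; without sedentary libraries 1 and 6, Dag1 -0.071 and Sgcb -0.13; GC with numbers 1 to 3, Dag1 -0.16 and Sspn -0.089; GC with numbers 4 to 6, Dysf -0.036; mean GC, Dag1 -0.013. With single libraries left out they ran from -0.17 to 0.14 (Dag1), -0.033 to 0.12 (Sgcb), -0.12 to 0.27 (Sspn) and -0.039 to 0.17 (Dysf). For CD47-KO against sedentary, Utrn was 0.0057 with size factors, 0.0058 with DESeq2, 0.055 with limma-voom, 0.021 without a filter, 0.021 with only those groups, 0.56 with numbers 4 to 6, 0.091 without sedentary libraries 1 and 6, 0.23 with GC and numbers 4 to 6, and -0.14 to 0.15 with single libraries left out. Sspn was 0.36 with numbers 4 to 6. Sgcd was -0.94 with GC, -0.93 with GC and length, -1.13 with GC and block, -1.22 and -0.61 with GC and numbers 1 to 3 or 4 to 6, and -0.49 with mean GC. Lama2 was -0.099, -0.088, -0.16 and -0.23 with GC and length, GC and block, GC and numbers 1 to 3, and mean GC. With GC and numbers 4 to 6, Dmd was -0.069 and Dag1 0.14. Against exercise, Utrn was -0.020 with the block, -0.11 with GC and block and -0.16 with GC and numbers 1 to 3, and Sspn 0.094 with numbers 4 to 6. Sgcd was -0.54 with GC, -0.51 with GC and length, -0.78 with GC and block, -0.57 and -0.56 with GC and numbers 1 to 3 or 4 to 6, and -0.091 with mean GC. Sgca was 0.017 with GC and length, 0.11 with GC and block and 0.044 with GC and numbers 1 to 3.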
